A study of Mus musculus with 6 samples.

Results

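The ion and metal solute carriers are the membrane transporters that move bicarbonate, chloride, protons, sodium, calcium, phosphate, magnesium, zinc and iron across lung cell membranes. They were taken here as every row of the deposited table whose symbol begins with the Slc4, Slc8, Slc9, Slc12, Slc20, Slc24, Slc26, Slc30, Slc34, Slc39, Slc40 or Slc41 family name, without Slc26a4 and Slc34a2. This gave 82 of 23284 gene rows in 12 families. Of these, 79 are carriers, and 3 match by name only: Slc4a1ap, Slc9a3r1 and Slc9a3r2 encode proteins that bind a carrier and do not transport ions. Levels are FPKM, the fragments of a gene per kilobase of transcript scaled to the mapped fragments of the library, measured in whole lung of 6-week-old C57BL/6 mice. The 3 mice of 1 group carried the Fra-2 transgene (Fra-2tg, described as mutant in the labels), and the 3 wild-type mice were their littermates, with 1 library for each mouse. Which promoter drives the transgene was not given in the sources used here. Fosl2, the gene of Fra-2, was at 11.1, 13.9 and 11.2 FPKM in wild-type mice and 12.3, 17.4 and 15.8 FPKM in Fra-2tg mice, and it was not called (limma adjusted p = 0.158), so it does not check the labels.

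As background, carriers of these families use the sodium, chloride and proton gradients across a membrane, or the concentration of the metal itself, to move their substrate. In lung, Slc12, Slc26, Slc4 and Slc9 carriers of airway and alveolar epithelium set the chloride, bicarbonate and pH of the liquid on its surface. Slc39 carriers (ZIP) bring zinc into the cytosol and Slc30 carriers (ZnT) take it out, to the outside or into vesicles, while Slc40a1 (ferroportin) releases iron from macrophages.

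Of the 82 rows, 57 had a mean of at least 0.5 FPKM over the 6 libraries and were tested, and 25 were not. The tested rows were called at about the share of all genes. In Fra-2tg lung 10 were higher and 5 lower, 26.3% of those tested, against 26.7% of all 14855 tested genes (limma on log2(FPKM + 1), adjusted p under 0.05). By direction, 17.5% were higher, against 13.6% of all genes, and 8.77% were lower, against 13% of all genes. The groups did not overlap for 27 of the 57 rows (47.4%), against 45.7% of all tested genes. Fra-2tg lay above in 15 of them (26.3%, against 23.3%) and below in 12 (21.1%, against 22.4%). The median log2 fold change was -0.01 over the tested rows and 0.00 over all tested genes. These shares lay near those of all genes, and the values that follow concern single genes.

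Slc12a2 (log2 fold change of 1.16), Slc39a2 (1.03) and Slc26a10 (-1.04) were the 3 called rows with a log2 fold change of at least 1 in size, 5.26% of the tested rows against 3.76% of all tested genes. With that fold threshold set aside, 9 of the 15 calls held under every alternative fit that tested the gene. They were Slc12a2, Slc39a2, Slc26a10, Slc4a2, Slc4a5, Slc9a4, Slc30a4, Slc39a11 and Slc39a14. The scale of the libraries mattered for the split. With values rescaled to equal library sums, a step that moved the median of all genes to -0.13 on the log2 scale, 7 rows were higher and 14 lower, against 7.73% higher and 23.1% lower of all genes. Under that rescaling 21 rows were called, against 30.9% of all genes. Slc24a3, Slc26a9 and Slc39a1 lost their calls, and Slc4a3, Slc9a8, Slc24a6, Slc26a11, Slc30a1, Slc30a9, Slc39a3, Slc39a4 and Slc39a8 were called lower. Without wild type replicate 3, 9 rows were called in place of 15, which is 15.8% of those tested, against 15% of all genes. The lower rows were 2 without wild type replicate 1, wild type replicate 3 or Fra-2tg replicate 2 (3.51% to 3.57%, against 7.69% to 11.5% of all genes). They were 3 without wild type replicate 2 or Fra-2tg replicate 1 (5.26% and 5.17%, against 10.2% and 9.1% of all genes).

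Wild type replicate 2 stood nearest to Fra-2tg among the wild-type libraries in genes that rose. It held the highest wild-type value of 9 of the 10 higher rows, against 66.7% of the 2027 higher genes in all. Fosl1, the gene of Fra-1, was at 0.0271, 8.23 and 0.0631 FPKM in wild-type mice and 39.9, 44.4 and 46.0 FPKM in Fra-2tg mice. Without that library 13 of the 15 rows were called, all of them shared, and Slc39a6 was among those lost.

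**Figure D1:**
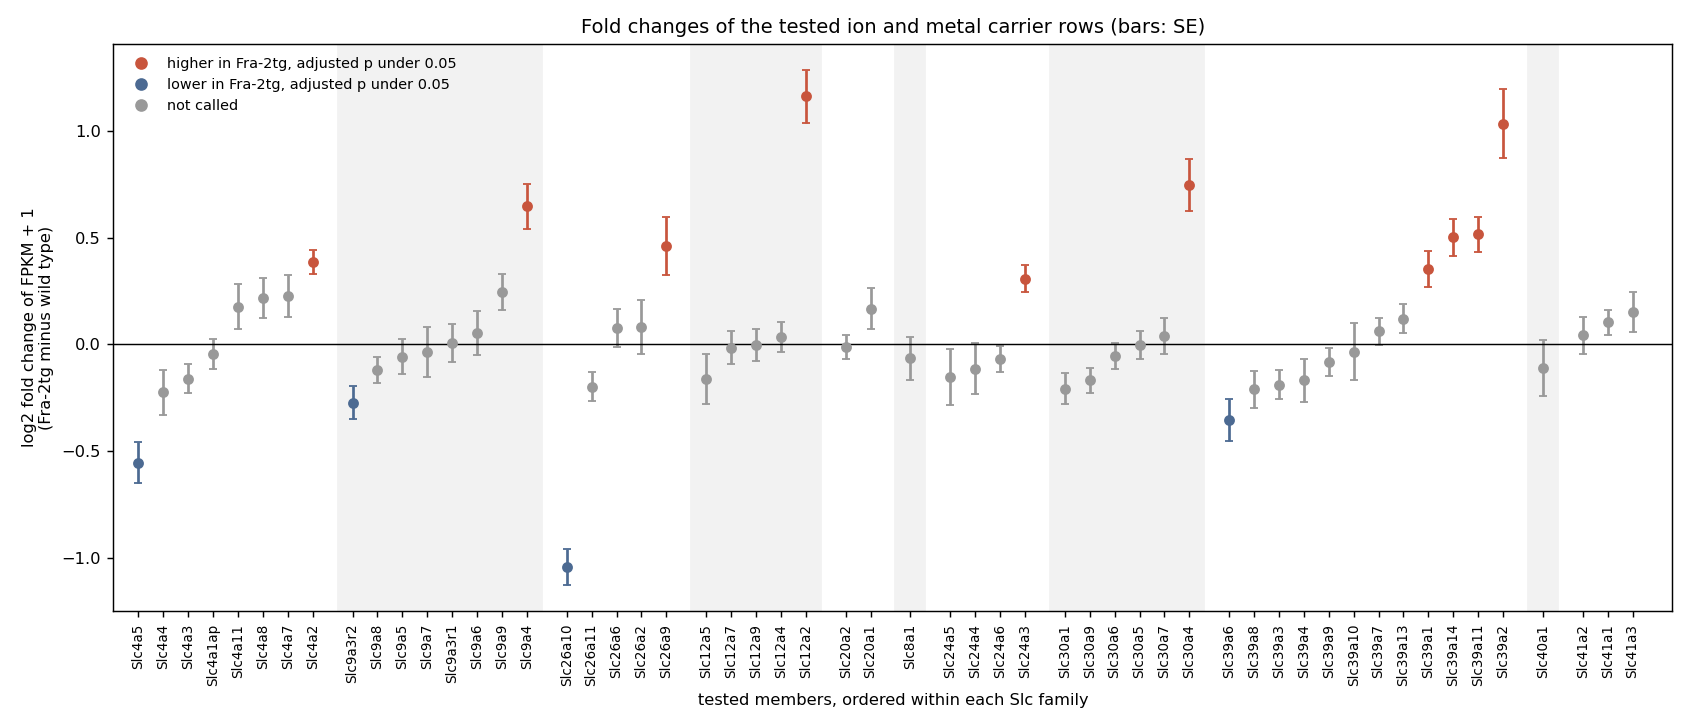
Log2 fold changes of FPKM + 1 (y axis, Fra-2tg minus wild type) for 55 of the tested rows, ordered within each Slc family on the x axis. Points are limma estimates with bars of 1 SE, and colours mark rows called higher, called lower or not called. Slc12a2 and Slc39a2 lie at the top with 1.16 and 1.03, and Slc26a10 at the bottom with -1.04.

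Among the zinc importers, 4 of the 12 tested Slc39 genes rose in Fra-2tg lung and 1 fell. Slc39a2, a zinc importer of the cell surface (chromosome 14, 51892889 to 51896745, GRCm38), was at 1.90, 2.79 and 1.83 FPKM in wild-type mice and 4.50, 5.36 and 6.62 FPKM in Fra-2tg mice. All Fra-2tg libraries lay above all wild-type libraries, and the mean rose 2.53-fold (log2 fold change 1.03 ± 0.16 SE, limma adjusted p = 0.00565). Of the 3447 exon bases of Slc39a2, 151 are shared on the same strand with Mettl17. Mettl17 had means of 13.8 FPKM in wild-type mice and 13.5 FPKM in Fra-2tg mice and was not called (limma adjusted p = 0.75). Slc39a11 (chromosome 11, 113244853 to 113650079) was at 6.12, 6.44 and 5.34 FPKM in wild-type mice and 8.94, 8.50 and 9.38 FPKM in Fra-2tg mice, a rise of 1.498-fold (limma adjusted p = 0.00594). Slc39a14, which carries zinc, iron not bound to transferrin and manganese (chromosome 14, 70303469 to 70351425), was at 6.31, 5.95 and 5.62 FPKM in wild-type mice and 7.86, 9.27 and 9.49 FPKM in Fra-2tg mice, a rise of 1.49-fold (limma adjusted p = 0.00791). Both genes kept the groups apart, and both started from nearly the same wild-type mean, 5.97 ± 0.565 and 5.96 ± 0.344 FPKM (SD, n = 3).

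Slc39a1, a widely expressed importer of the plasma membrane and the third most abundant zinc importer here, was at 57.8, 60.8 and 51.1 FPKM in wild-type mice and 76.9, 67.7 and 72.9 FPKM in Fra-2tg mice. It rose 1.28-fold (limma adjusted p = 0.0229), and the groups did not overlap. With values rescaled to equal library sums, or with replicate 1 or 3 of either group left out, the call was lost (range of limma adjusted p from 0.0181 to 0.118 over all alternatives). Slc39a6, an importer known from cell migration in fish embryos and from human breast tumours, was the member that fell. Its values were 12.4, 11.8 and 14.0 FPKM in wild-type mice and 10.3, 8.52 and 10.5 FPKM in Fra-2tg mice, 0.767 times wild type (limma adjusted p = 0.0394). Leaving out any 1 library, or the filter on low values, ended that call (limma adjusted p from 0.0266 to 0.122 over all alternatives).

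The other abundant importers were not called. Slc39a7, which releases zinc from the endoplasmic reticulum and the Golgi, had the highest level of the family at 74.2, 73.5 and 70.0 FPKM in wild-type mice and 80.5, 75.9 and 71.0 FPKM in Fra-2tg mice, with overlapping groups (limma adjusted p = 0.519). Most of its exons, 2084 of 2584 bases, are shared on the same strand with the annotated transcript Gm20427, so this level is uncertain. Slc39a8, the importer of zinc, manganese and cadmium that is abundant in lung, followed at 65.8, 76.2 and 73.7 FPKM in wild-type mice and 56.0, 63.6 and 66.5 FPKM in Fra-2tg mice. The lowest wild-type library lay below the highest Fra-2tg library, and the ratio of 0.863 was not called (limma adjusted p = 0.12). With the replicate block or with equal library sums Slc39a8 was called lower (limma adjusted p from 0.0374 to 0.298 over all alternatives). Slc39a4, the importer whose loss causes the zinc deficiency acrodermatitis enteropathica in humans, was at 54.4 ± 6.34 FPKM in wild-type mice and 48.1 ± 4.24 FPKM in Fra-2tg mice (SD, n = 3 each; limma adjusted p = 0.259). It too was called lower with equal library sums (limma adjusted p = 0.0289, the lowest of its alternatives, which reach 0.554). In wild type the means ran from Slc39a7 through Slc39a8, Slc39a1 and Slc39a4 to Slc39a13, which was at 31.4 ± 2.16 FPKM in wild-type mice and 34.2 ± 1.39 FPKM in Fra-2tg mice (SD, n = 3 each) and was not called (limma adjusted p = 0.23). In Fra-2tg, with 75.8 ± 4.76 FPKM for Slc39a7, 72.5 ± 4.65 for Slc39a1 and 62.1 ± 5.42 for Slc39a8, Slc39a1 took the second place, within 1 SD of the first. Slc39a9 followed Slc39a13 in both groups, at 20.3 ± 1.52 and 19.1 ± 0.242 FPKM.

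**Figure D2:**
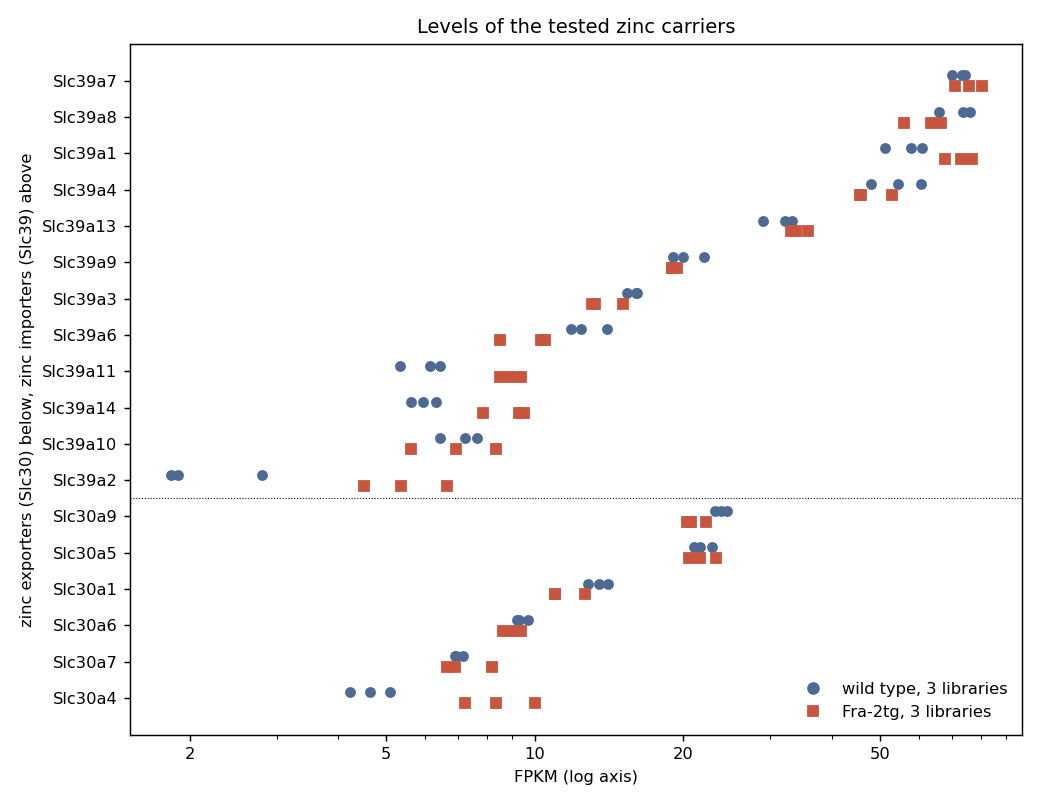
FPKM on a log axis for the 6 tested zinc exporters (below the dotted line) and the 12 tested zinc importers (above it), ordered by mean level, with circles for the 3 wild-type and squares for the 3 Fra-2tg libraries. The groups are apart for Slc39a2, Slc39a11, Slc39a14, Slc39a1 and Slc30a4, with Fra-2tg to the right, and for Slc39a6, Slc39a3, Slc30a1 and Slc30a9, with Fra-2tg to the left, of which only Slc39a6 was called.

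Of the 6 tested zinc exporters 1 was called, and it was higher. Slc30a4, which loads zinc into vesicles and is known for putting zinc into mouse milk (chromosome 2, 122681233 to 122702663), was at 4.23, 5.09 and 4.63 FPKM in wild-type mice and 7.22, 8.34 and 10.03 FPKM in Fra-2tg mice. The groups did not overlap, and the mean was 1.84-fold higher (log2 fold change 0.75 ± 0.12 SE, limma adjusted p = 0.00638). Slc30a1, the exporter of the plasma membrane and a target of the metal-sensing factor MTF-1, lay the other way at 12.8, 13.47 and 14.1 FPKM in wild-type mice and 11.0, 11.0 and 12.6 FPKM in Fra-2tg mice. Its groups did not overlap, but it was not called (limma adjusted p = 0.0824). Slc30a9 was at 23.8 ± 0.703 FPKM in wild-type mice and 21.1 ± 1.01 FPKM in Fra-2tg mice (SD, n = 3 each; limma adjusted p = 0.0718). Slc30a5, which supplies zinc to enzymes of the secretory pathway, had means of 21.8 FPKM in both groups.

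Genes that work with the carriers were taken from 8 short lists by substrate, in which 17 of 85 tested genes rose and 15 fell (37.6%, against 26.7% of all genes). The lists were chosen with earlier results of these data known, so that share is a description and no independent result. In the list of zinc genes the calls went 1 way. Of its 6 tested genes 3 rose and 0 fell, with a median log2 fold change of 0.68. The zinc-binding metallothioneins Mt1 and Mt2, which MTF-1 also controls, rose. Mt1 was at 112, 118 and 89.8 FPKM in wild-type mice and 180.0, 390.2 and 192 FPKM in Fra-2tg mice (limma adjusted p = 0.0294). Mt2 was at 37.9, 37.7 and 26.7 FPKM in wild-type mice and 59.3, 175 and 76.9 FPKM in Fra-2tg mice (limma adjusted p = 0.0346). Fra-2tg replicate 2 held the highest value of both. Both lost their calls without any 1 wild-type library and with robust moderation, and Mt2 also with no filter and without Fra-2tg replicate 3 (limma adjusted p up to 0.0997 for Mt1 and 0.113 for Mt2 over all alternatives). The vesicular zinc transporter Tmem163 rose 1.597-fold (limma adjusted p = 0.00942). Mtf1 itself was at 4.10, 4.05 and 4.18 FPKM in wild-type mice and 3.88, 3.86 and 4.70 FPKM in Fra-2tg mice.

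Because Mt1 and Slc30a1 are textbook targets of MTF-1, promoters were searched for the core of the metal response element, TGCACNC or TGCGCNC, on both strands from 250 bases before to 50 bases after each RefSeq start (GRCm38.p6). The core was found at 7 of the 15 tested zinc carriers that have a promoter in RefSeq (46.7%) and at 4 of the 10 called rows that have one (40%), against 39% of the 11532 genes tested here. By form, TGCACNC was at 6 of the 15 (40%, against 15.2% of the tested genes) and TGCGCNC at 4 (26.7%, against 28.7%). With the zinc carriers under the filter included, 11 of 20 held either form (55%), against 28.2% of all 27025 genes with a promoter. The 11 were Slc30a1, Slc30a2, Slc30a3, Slc30a4, Slc30a5, Slc30a10, Slc39a3, Slc39a5, Slc39a8, Slc39a11 and Slc39a13, and of these Slc30a4 and Slc39a11 were called. The lines below give the stretch before the start that lies in no annotated exon, 5′ to 3′, with the matched core in capitals as read on this strand, for both called genes and for the pair of known targets. For Slc39a11, which has another RefSeq start with a core before it, the stretch at 1 start is shown.
Slc30a4, chr2:122702664-122702904, minus strand: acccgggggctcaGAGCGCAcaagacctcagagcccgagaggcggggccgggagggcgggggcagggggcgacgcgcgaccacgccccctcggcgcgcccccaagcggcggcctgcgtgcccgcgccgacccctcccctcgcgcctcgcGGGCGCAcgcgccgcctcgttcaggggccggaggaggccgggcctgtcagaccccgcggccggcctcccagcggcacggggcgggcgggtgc
Slc39a11, chr11:113650093-113650342, minus strand: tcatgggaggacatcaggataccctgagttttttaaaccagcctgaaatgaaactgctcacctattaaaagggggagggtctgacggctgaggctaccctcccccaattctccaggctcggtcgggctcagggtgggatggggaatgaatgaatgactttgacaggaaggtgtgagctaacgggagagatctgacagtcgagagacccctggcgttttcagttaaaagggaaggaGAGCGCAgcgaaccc
Slc30a1, chr1:191906531-191906766, plus strand: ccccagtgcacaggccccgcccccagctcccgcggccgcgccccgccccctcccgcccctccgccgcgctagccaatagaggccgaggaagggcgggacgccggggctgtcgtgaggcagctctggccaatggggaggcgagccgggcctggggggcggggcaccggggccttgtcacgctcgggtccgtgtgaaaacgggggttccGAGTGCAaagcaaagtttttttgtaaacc
Mt1, chr8:94178839-94179081, plus strand: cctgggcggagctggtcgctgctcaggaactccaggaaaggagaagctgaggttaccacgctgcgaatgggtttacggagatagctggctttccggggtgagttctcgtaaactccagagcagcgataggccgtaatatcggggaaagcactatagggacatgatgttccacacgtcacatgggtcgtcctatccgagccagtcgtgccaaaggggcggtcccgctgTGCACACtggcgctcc
Slc30a4 held 2 cores in the stretch shown and the others 1 each, whether the gene rose (Slc30a4, Slc39a11, Mt1) or was not called (Slc30a1). The whole windows, with the bases in exons, held 3 for Slc30a4, 3 for Mt1, 2 for Slc30a1 and 1 for this start of Slc39a11. The window of Mt2, not shown, held 4, all of them in annotated exons. A match is a description of the letters and not a bound site.

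Slc12a2 (NKCC1) brings sodium, potassium and chloride into epithelial cells and so feeds chloride secretion. It had the largest rise among the 57 tested rows by log2 fold change of FPKM + 1. By the ratio of mean FPKM Slc39a2 rose more (2.53-fold against 2.30-fold). Slc12a2 lies on chromosome 18 (57878678 to 57946821). Its level was 15.4, 20.5 and 18.0 FPKM in wild-type mice and 37.3, 39.9 and 47.0 FPKM in Fra-2tg mice. The lowest Fra-2tg library was well above the highest wild-type library, the mean rose 2.30-fold (log2 fold change 1.16 ± 0.12 SE, limma adjusted p = 0.00199), and the fold change stayed between 1.01 and 1.26 on the log2 scale over all alternatives.

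The carriers that move potassium and chloride out of cells include Slc12a4 and Slc12a7, and neither was called. Slc12a4 (KCC1) was at 31.7 ± 1.45 FPKM in wild-type mice and 32.6 ± 2.43 FPKM in Fra-2tg mice, and Slc12a7 (KCC4) at 22.1 ± 0.571 and 21.8 ± 2.18 FPKM (SD, n = 3 each; limma adjusted p = 0.748 and 0.89). The kidney carriers Slc12a1 (NKCC2) and Slc12a3 (NCC) stayed below 0.15 FPKM in every library. The WNK kinases and their targets SPAK (Stk39) and OSR1 (Oxsr1) switch these carriers by phosphorylation. In a list of such genes 2 of 8 tested rose and 1 fell. Stk39 was at 4.25, 5.22 and 3.60 FPKM in wild-type mice and 6.13, 7.27 and 7.28 FPKM in Fra-2tg mice, a rise of 1.58-fold (limma adjusted p = 0.0189). Wnk4 rose 1.33-fold (limma adjusted p = 0.0245), and the ubiquitin ligase Nedd4l fell to 0.691 times wild type (limma adjusted p = 0.00962). The calls of Stk39 and Wnk4 were lost without some single libraries, among them wild type replicates 1 or 3, and that of Wnk4 also with equal library sums (limma adjusted p up to 0.0583 and 0.0985 over all alternatives).

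Of the 5 tested anion exchangers of the Slc26 family 1 rose and 1 fell. Slc26a9, a chloride carrier of airway and stomach epithelium, was at 15.4, 20.5 and 18.7 FPKM in wild-type mice and 29.7, 22.3 and 24.2 FPKM in Fra-2tg mice. The groups lay apart by a small margin, and the 1.40-fold rise was close to the threshold (limma adjusted p = 0.0469). Of 15 alternative fits 8 ended the call, among them the replicate block, equal library sums and leaving out replicate 1 or 3 of either group (range of limma adjusted p from 0.0363 to 0.137). Slc26a10, whose substrate is not named here (chromosome 10, 127171393 to 127180645), showed the largest fall by log2 fold change among the 57 tested rows. It was at 2.30, 2.22 and 2.41 FPKM in wild-type mice and 0.560, 0.724 and 0.540 FPKM in Fra-2tg mice, 0.263 times wild type (log2 fold change -1.04 ± 0.09 SE, limma adjusted p = 0.00116). Of its 4027 exon bases, 715 lie opposite exons of B4galnt1, which was at 55.8 ± 8.64 FPKM in wild-type mice and 57.3 ± 3.10 FPKM in Fra-2tg mice (SD, n = 3 each; limma adjusted p = 0.789). The kit marks the strand, but whether the counting used it was not stated, so the level of Slc26a10 is uncertain.

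Slc26a11, which is found in lysosomes, was at 9.90, 8.58 and 8.91 FPKM in wild-type mice and 7.81, 7.81 and 7.82 FPKM in Fra-2tg mice. The groups did not overlap and the Fra-2tg values were nearly equal, but the ratio of 0.856 was not called (limma adjusted p = 0.075). Slc26a2, the sulphate carrier of cartilage, and Slc26a6, an exchanger of chloride for bicarbonate and oxalate, had ratios of 1.07 each. The gut exchanger Slc26a3 was below 0.1 FPKM in wild-type mice and listed at 0 in Fra-2tg, and Slc26a5 (prestin, of the inner ear) was listed at 0 in all 6 libraries. Of 13 tested genes listed beside these carriers, Cftr and members of the Ano, Clcn and Clic families, 2 rose and 1 fell. Besides Ano1, Clic1 rose 1.28-fold and Clic5 fell to 0.684 times wild type (limma adjusted p = 0.0131 and 0.0121). Clic5 is also in the list of alveolar type 1 markers. Ano1, the calcium-activated chloride channel of airway epithelium and smooth muscle, was at 18.8, 25.2 and 21.6 FPKM in wild-type mice and 39.4, 33.98 and 41.6 FPKM in Fra-2tg mice, a rise of 1.75-fold (limma adjusted p = 0.00523). Cftr was at 1.62 to 1.77 FPKM in wild-type mice and 1.90 to 2.27 FPKM in Fra-2tg mice and was not called (limma adjusted p = 0.146).

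Among the bicarbonate carriers of the Slc4 family 1 of 7 tested rose and 1 fell. Slc4a2 (AE2), the most abundant of them, exchanges chloride for bicarbonate at the basolateral side of epithelia (chromosome 5, 24423837 to 24440950). It was at 28.4, 29.7 and 27.0 FPKM in wild-type mice and 37.7, 37.9 and 36.4 FPKM in Fra-2tg mice. The libraries of a group differed little and the groups lay apart, with a 1.32-fold rise (log2 fold change 0.38 ± 0.06 SE, limma adjusted p = 0.00438). Exons of Fastk on the opposite strand cover 1141 of its 8322 exon bases, and Fastk was not called (limma adjusted p = 0.374). Slc4a5, a sodium bicarbonate cotransporter (chromosome 6, 83219828 to 83304945), was at 12.04, 11.9 and 14.3 FPKM in wild-type mice and 8.29, 7.603 and 9.13 FPKM in Fra-2tg mice. It fell to 0.655 times wild type (limma adjusted p = 0.00803), and the groups did not overlap. Slc4a4 (NBCe1), the better known sodium bicarbonate cotransporter, also had its Fra-2tg values below those of wild type, 1.44 ± 0.0204 against 1.87 ± 0.355 FPKM (SD, n = 3 each), without a call (limma adjusted p = 0.159). Slc4a7 and Slc4a8, of the same family, lay the other way with ratios of 1.28 and 1.26, also not called (limma adjusted p = 0.138 and 0.136).

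**Figure D3:**
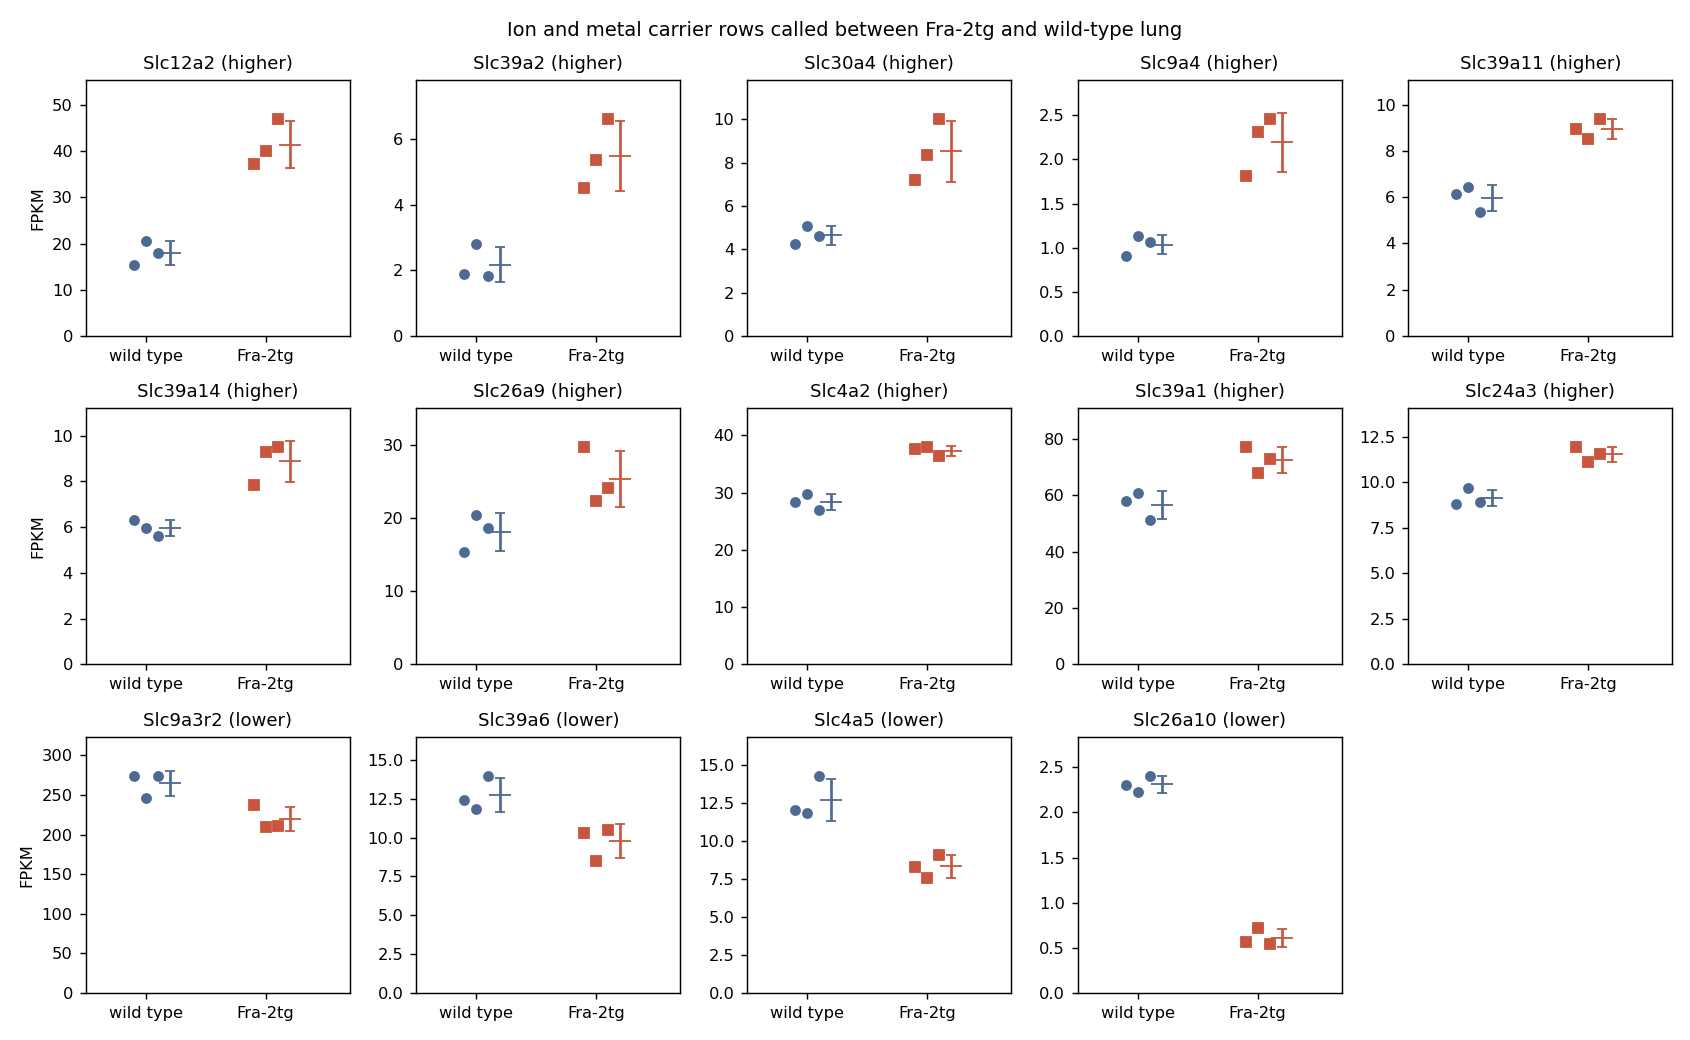
FPKM (y axis, from 0) of 14 of the called rows in the 3 wild-type (circles) and 3 Fra-2tg (squares) libraries, left to right by replicate, with the mean and SD beside them. In each of the 14 panels the groups do not overlap, 10 with Fra-2tg above and 4 with Fra-2tg below.

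The sodium-proton exchangers held 1 call among 7 tested carriers. Slc9a4 (NHE4), known from stomach and kidney (chromosome 1, 40580081 to 40630725), was low but apart, at 0.912, 1.13 and 1.07 FPKM in wild-type mice and 1.82, 2.31 and 2.46 FPKM in Fra-2tg mice. Its mean rose 2.12-fold (log2 fold change 0.65 ± 0.11 SE, limma adjusted p = 0.00672). Of its 4562 exon bases, 971 lie opposite exons of Gm35801 and Gm37435. Whether the counting used the strand was not stated, so the level of Slc9a4 is uncertain. Slc9a3 (NHE3) was listed at 0 in all libraries. Its scaffold Slc9a3r2 (NHERF2), which is no carrier, was the most abundant of the 82 rows and is also known from lung endothelium. It was at 274, 246 and 274 FPKM in wild-type mice and 237, 209.8 and 211 FPKM in Fra-2tg mice, 0.827 times wild type (limma adjusted p = 0.0458). That call was lost with no filter, and when replicate 3 of either group, wild type replicate 1 or Fra-2tg replicate 2 was left out (limma adjusted p from 0.0122 to 0.134 over all alternatives). The related scaffold Slc9a3r1 (NHERF1, of epithelia) was at 38.8 ± 3.15 and 39.01 ± 3.61 FPKM (SD, n = 3 each). Of 10 endothelial markers 7 were lower and 1 higher. Their summed level was 2347 to 2586 FPKM in wild-type mice and 1712 to 1915 FPKM in Fra-2tg mice. Cldn5 and Pecam1, with the highest means, were not called (ratios 0.830 and 1.00, limma adjusted p = 0.13 and 0.955). Cdh5, the next, was lower (ratio 0.741, limma adjusted p = 0.0111). The part of these 10 markers in the lower Slc9a3r2 was not tested. In such bulk samples, fewer cells of a type and less RNA per cell cannot be told apart.

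In the list of sodium and proton partners 2 of 11 tested genes rose and 4 fell. The sodium channel subunits Scnn1b and Scnn1g, which take up alveolar sodium, fell to 0.634 and 0.664 times wild type (limma adjusted p = 0.00192 and 0.00155). The sodium pump subunit Atp1b3 rose 1.39-fold (limma adjusted p = 0.00398).

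Among the calcium exchangers, Slc24a3 was the only called member. Slc24a3, which trades sodium for calcium and potassium and is known from smooth muscle and brain, was at 8.84, 9.68 and 8.92 FPKM in wild-type mice and 11.9, 11.1 and 11.6 FPKM in Fra-2tg mice. It rose 1.26-fold without overlap (limma adjusted p = 0.0141). The call was lost with equal library sums and without wild type replicate 3 or Fra-2tg replicate 1 (limma adjusted p from 0.0115 to 0.145 over all alternatives). Slc8a1 (NCX1), the exchanger of heart muscle, was at 1.83, 2.25 and 2.26 FPKM in wild-type mice and 1.94, 1.76 and 2.22 FPKM in Fra-2tg mice, with overlapping groups (limma adjusted p = 0.66). Markers of heart muscle, which mouse lung holds in the walls of pulmonary veins, were lower in 8 of 9 tested, with summed levels of 312 to 500.3 FPKM in wild-type mice and 101 to 183 FPKM in Fra-2tg mice. Their part in the level of Slc8a1 was not tested. Slc24a6, the exchanger of the inner mitochondrial membrane now named Slc8b1, was at 19.9 ± 0.667 and 18.9 ± 0.923 FPKM (SD, n = 3 each; limma adjusted p = 0.419).

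Of 11 other tested calcium genes 2 rose and 4 fell. Atp2a3, a calcium pump of the endoplasmic reticulum, was at 126, 112 and 122 FPKM in wild-type mice and 69.5, 65.0 and 64.7 FPKM in Fra-2tg mice (0.553 times, limma adjusted p = 0.0011). The store sensor Stim1 fell to 0.692 times wild type while its channel Orai1 rose 1.30-fold (limma adjusted p = 0.00258 and 0.00719). The mitochondrial uniporter Mcu, listed as Ccdc109a, rose 1.30-fold (limma adjusted p = 0.00733), a call lost with equal library sums (limma adjusted p = 0.0587, the highest of its alternatives).

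None of the tested members of the phosphate (Slc20), magnesium (Slc41) and iron export (Slc40) families was called by limma. None of them had an unadjusted p under 0.05. Slc39a14, which also carries iron, was counted with the zinc importers and was called higher (limma adjusted p = 0.00791). Slc40a1 (ferroportin) was at 5.70, 5.81 and 6.42 FPKM in wild-type mice and 6.75, 4.49 and 5.31 FPKM in Fra-2tg mice, with wild type inside the range of Fra-2tg (limma adjusted p = 0.562). Markers of macrophages were higher in 9 of 11 tested, with summed levels of 279 to 380.04 FPKM in wild-type mice and 728 to 852 FPKM in Fra-2tg mice. Their part in the level of Slc40a1 was not tested. In a list of iron genes 5 of 21 tested rose and 3 fell. Cybrd1, a ferric reductase, was at 3.70, 8.79 and 4.60 FPKM in wild-type mice and 24.7, 24.003 and 31.02 FPKM in Fra-2tg mice (4.66-fold, limma adjusted p = 0.00293). Hmox1, which frees iron from haem, rose 1.67-fold (limma adjusted p = 0.0026). Steap3, a ferric reductase of endosomes, and haptoglobin (Hp) fell to 0.730 and 0.657 times wild type (limma adjusted p = 0.0052 and 0.00722).

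The phosphate carrier Slc20a1 (PiT-1) was at 22.99, 23.2 and 22.03 FPKM in wild-type mice and 22.03, 27.6 and 27.8 FPKM in Fra-2tg mice. Fra-2tg replicate 1 lay with wild type, and without it Slc20a1 was called higher (limma adjusted p = 0.0349, the lowest of its alternatives, which reach 0.903). Slc20a2 (PiT-2) had means of 9.58 ± 0.257 and 9.50 ± 0.232 FPKM (SD, n = 3 each). Of 6 other tested phosphate genes, Ank, which exports pyrophosphate and ATP, rose 2.25-fold, and the phosphatase Alpl fell to 0.535 times wild type (limma adjusted p = 0.00367 and 0.00818). The magnesium carriers Slc41a1, Slc41a2 and Slc41a3 had ratios of 1.08, 1.04 and 1.12. Of 10 tested magnesium genes Cnnm3 fell to 0.795 times wild type (limma adjusted p = 0.0128) and 0 rose. Without wild type replicate 3 the call of Cnnm3 was lost (limma adjusted p = 0.0519, the highest of its alternatives).

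Summed over each family, without the 3 rows that are no carriers, most levels moved little. The 14 zinc importers came to 359, 369 and 344 FPKM in wild-type mice and 367, 364 and 366 FPKM in Fra-2tg mice, and the 10 zinc exporters to 80.1, 80.0 and 81.4 FPKM and to 78.6, 77.3 and 83.7 FPKM. The rises of single zinc carriers stood beside deposited sums that overlapped between the groups. The Slc12 sum was 99.99, 107 and 103 FPKM in wild-type mice and 119, 119 and 129.6 FPKM in Fra-2tg mice, and the Slc4 sum 52.7, 53.6 and 54.7 FPKM and 58.1, 58.1 and 58.0 FPKM. Both kept the groups apart, as did the Slc41 sum by a small margin, with 21.1 to 23.4 FPKM in wild-type mice and 23.6 to 24.5 FPKM in Fra-2tg mice. With values rescaled to equal library sums, chosen after seeing the data, all 3 of these sums overlapped between the groups, with ratios of 0.973 for Slc4, 1.07 for Slc12 and 0.981 for Slc41 in place of 1.08, 1.19 and 1.09. On that scale the Slc39 sums were lower in every Fra-2tg library, at 374, 382 and 376 FPKM in wild-type mice and 346, 330.3 and 367 FPKM in Fra-2tg mice, as were the Slc24 sums (ratio 0.906). These sums are descriptions and carry no test.

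**Figure D4:**
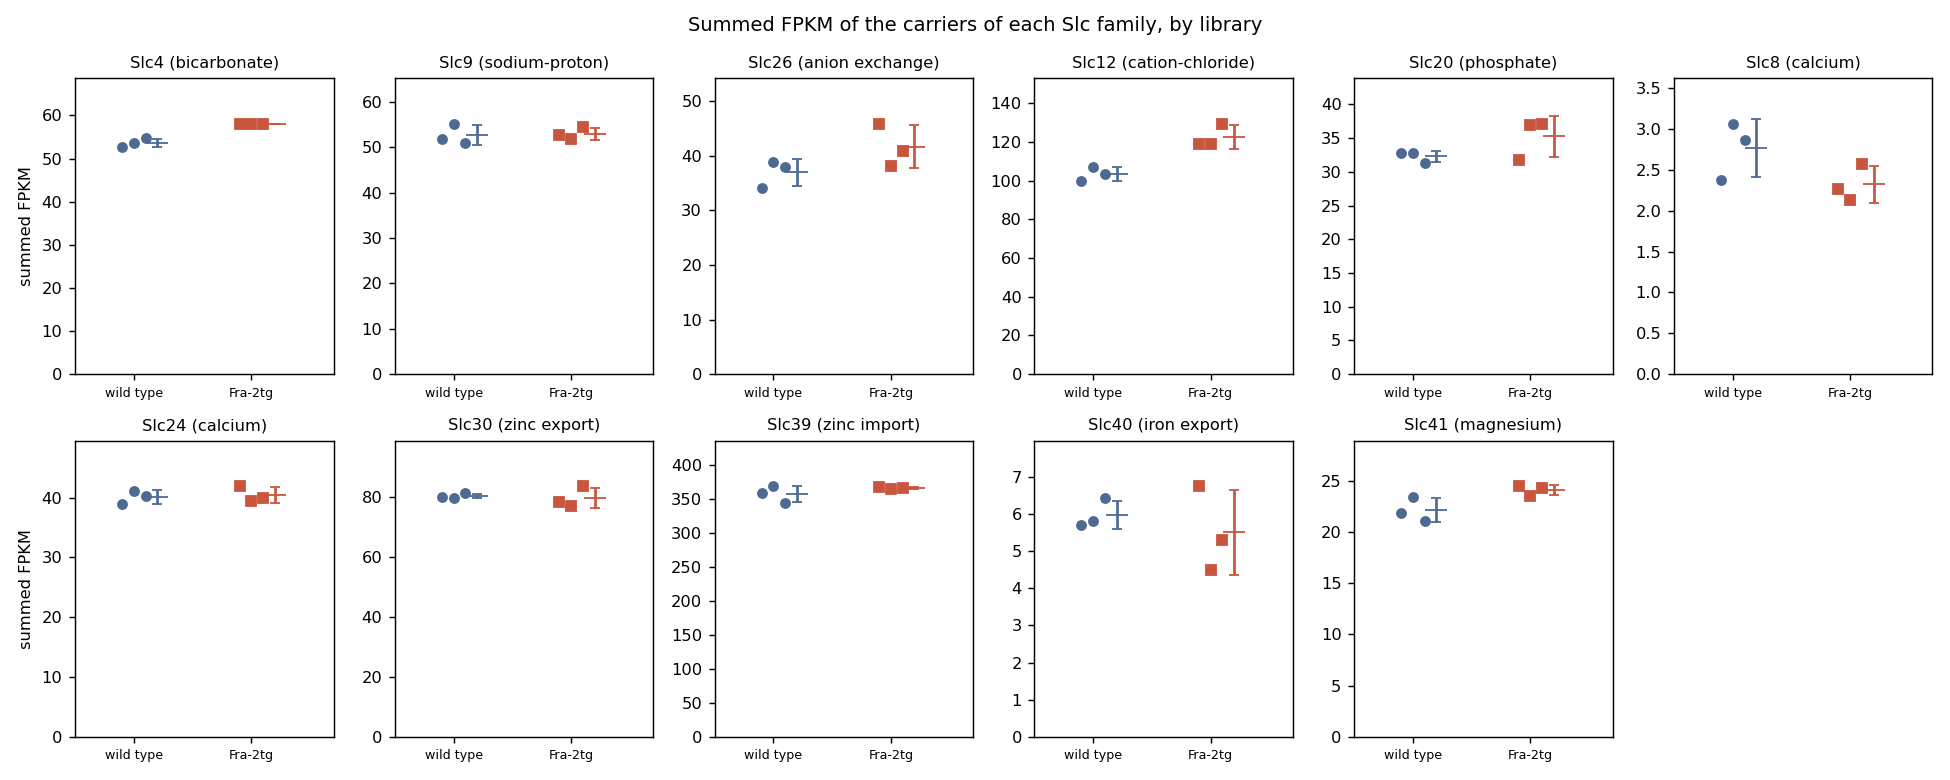
Summed FPKM (y axis, from 0) of the carriers of 11 Slc families in each library, circles for wild type and squares for Fra-2tg, left to right by replicate, with the mean and SD beside them. The Slc12, Slc4 and Slc41 sums are higher in every Fra-2tg library than in every wild-type library, and the Slc39 sums overlap, from 344 to 369 FPKM. Rescaled to equal library sums, the Slc12, Slc4 and Slc41 groups overlap and the Slc39 groups do not.

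The 25 rows below the filter included carriers best known from kidney, gut and inner ear, and 13 of the 82 rows stayed under 0.1 FPKM in every library. Of the 25, 2 were at 0 in all libraries. The groups did not overlap for 8 of the other 23, against 18.6% of the genes under the filter that were above 0 in some library. Of the 23 that entered a fit with no filter 3 were called, 2 higher and 1 lower. Of the 4435 genes under the filter in that fit 7.31% were called, 3.45% higher and 3.86% lower. Slc30a2, a vesicular zinc exporter, was at 0.219, 0.315 and 0.327 FPKM in wild-type mice and 0.591, 0.536 and 0.590 FPKM in Fra-2tg mice (limma adjusted p = 0.00967 with no filter). Slc39a12, a zinc importer known from brain, was at 0.101, 0.139 and 0.122 FPKM in wild-type mice and 0.225, 0.292 and 0.351 FPKM in Fra-2tg mice (limma adjusted p = 0.0232 with no filter). Slc8a3 (NCX3), a calcium exchanger of brain and muscle, was at 0.278, 0.450 and 0.309 FPKM in wild-type mice and 0.132, 0.0970 and 0.0656 FPKM in Fra-2tg mice (limma adjusted p = 0.0169 with no filter). Slc9a2 (NHE2) was just under the filter at a mean of 0.494 FPKM, with 0.589, 0.546 and 0.654 FPKM in wild-type mice and 0.312, 0.478 and 0.383 FPKM in Fra-2tg mice, and was not called (limma adjusted p = 0.0542 with no filter). Slc8a2 (NCX2) was at 0.311 ± 0.0529 and 0.251 ± 0.0507 FPKM, and Slc12a8, a family member of uncertain substrate, at 0.457 ± 0.187 and 0.369 ± 0.167 FPKM (SD, n = 3 each), with overlapping groups. Slc4a1 (AE1, band 3 of red cells) was at 0.0284 to 0.201 FPKM in wild-type mice and 0.128 to 0.275 FPKM in Fra-2tg mice. Red cell markers, mostly globins, summed to 1408 to 2761 FPKM in wild-type mice and 1034 to 1320 FPKM in Fra-2tg mice, 0 of 5 tested were called, and Kel and Spna1 were under 0.1 FPKM in every library.

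Fra-2 acts through AP-1 sites, so the same windows were searched for TGANTCA on both strands. It was found at 6 of the 63 genes with a promoter in the table (9.52%), against 8.97% of all 27025 genes there. Among the 10 called rows with a promoter only Slc9a3r2 held one, and 0 of the 20 zinc carriers did.

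The epithelial carriers that rose stood beside marker levels that also differed. Alveolar type 2 markers, without Sftpc, were higher in 6 of 8 tested and lower in 1, with sums of 5297 to 6959 FPKM in wild-type mice and 8257 to 9146 FPKM in Fra-2tg mice. Alveolar type 1 markers were lower in 4 of 8 and higher in 1 (3691 to 3969 and 2916 to 3306 FPKM). Club and goblet cell markers, without Scgb1a1, were higher in 4 of 9 and lower in 2 (3684 to 5589 and 2771 to 4530.3 FPKM). The higher ones were Clca3, Agr2, Muc5ac and Spdef, with ratios of 10.2, 3.68, 3.61 and 1.66. The lower ones were Scgb3a2 and Cyp2f2, with ratios of 0.424 and 0.542. Scgb3a1, Cyp2f2 and Scgb3a2 had the highest means and weighed most in the sums. Of 9 ciliated cell markers only Tppp3 was lower, and it held most of their sums of 536 to 584 FPKM in wild-type mice and 241 to 347 FPKM in Fra-2tg mice. No marker of these 4 lists was at 0 in all libraries. Their part in the levels of Slc12a2, Slc26a9, Slc4a2, Slc4a5 or the zinc carriers was not tested.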

How the data were processed

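RNA from whole lung of 3 Fra-2tg and 3 wild-type mice was sequenced, and groups follow the submitters' sample labels. The deposited table gives FPKM per gene and library, made by the authors. Per the submitters' processing notes the build was GRCm38 (mm10) and the tools were Cufflinks 2.2.1, SAMtools 0.1.19, Bowtie 1.0.0, TopHat2 2.0.10 and FastQC. FPKM hold no read counts, so the read depth behind each value is unknown and no counting interval is given. Library sums ran from 542233 to 664456 FPKM. Sftpc and Scgb1a1, at 0 in some libraries although every lung expresses them, were left out of sums used for rescaling and of marker sums.

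Genes whose mean over the 6 libraries reached 0.5 FPKM were tested on log2(FPKM + 1) with limma 3.58.1 (R 4.3.3, group as the only term, variance trend), with Benjamini-Hochberg adjustment over all 14855 tested genes and a threshold of 0.05. Fold changes on this scale understate changes of low genes. Ratios are of group mean FPKM. The fit was tested on simulated data. The members and lists were chosen with earlier results of these data known, and partner and marker lists came from textbook knowledge. The rule for named rows took every called one, the 12 most abundant tested ones not called, the 5 most abundant untested ones, and up to 4 called genes of each partner list. Other uncalled rows, Cftr, Mtf1, Fosl1 and Fosl2 were chosen after their values were seen. Some genes counted in the totals are not reported here by name. Gene positions and exon overlaps are from GENCODE M21, and Slc24a6 and Slc9a10 were matched by older symbols. Promoters are from RefSeq, where 63 of the 82 genes matched. Alternatives were other pseudocounts, filters, scalings, moderation, a fold threshold, the replicate block and leaving out each library.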

Additional observations from a re-analysis of the deposited data

How the results depend on the processing

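The 10 higher and 5 lower rows, 1 of them no carrier, were the same 15 under pseudocounts of 0.1 and 0.01 FPKM, median-ratio scaling and robust moderation. Lower rows numbered 3 with no filter and 14 with equal library sums, where all genes gave 1148 higher and 3438 lower. A log2 fold change of at least 1 left 2 higher and 1 lower rows, and 299 higher and 259 lower genes in all. Leaving out 1 library gave 7 to 10 higher and 2 to 4 lower rows, and 1088 to 1695 higher and 1141 to 1709 lower genes in all. The lowest counts over all genes came without wild type replicate 3. Without the 3 rows that are no carriers, an alternative chosen after seeing the data, 10 were higher and 4 lower.

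Same-numbered libraries correlated at -0.05, 0.01 and 0.16 in their deviations from the group means, so the numbers were not taken to pair them. With the replicate block 9 rows were higher and 6 lower, 14 of them shared, and all genes gave 1890 higher and 1651 lower. Some uncalled genes changed sign. With equal library sums the log2 fold change was -0.092 for Slc39a7, -0.030 for Slc39a13, -0.11 for Slc12a4 and -0.14 for Slc9a3r1. With 1 library left out it ran from -0.063 to 0.067 for Slc9a3r1, from -0.00273 to 0.096 for Slc12a4, from -0.095 to 0.028 for Slc12a7 and from -0.049 to 0.038 for Slc30a5. The cause was not tested. With 3 mice a group and no read counts, small differences and low genes remain poorly measured.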
